A study of Mus musculus with 2 samples.

Results

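Far intergenic open sites are stretches of accessible chromatin that lie in no protein-coding gene and far from the start of any. They were taken from DNase-seq of embryonic mouse liver as the peaks of replicate 1 that overlapped a peak of replicate 2 by at least 1 base, lay outside every protein-coding gene body of the GENCODE vM21 annotation (mm10), lay more than 1000 bases from any annotated transcript start and lay more than 50000 bases from the nearest start of a protein-coding transcript. Of 30382 shared peaks, 1519 met this rule (5.0%, exact 95% binomial interval 4.76% to 5.25%), and 255 of them lay more than 200000 bases from such a start. The other shared peaks were 4494 intergenic peaks within 50000 bases of a protein-coding start, 5570 peaks inside a protein-coding gene body but away from starts, and 18799 peaks within 1000 bases of a start. No measured height entered the rule beyond the presence of a peak in each library. The data were 2 libraries of liver from embryos at 13.5 days, labelled biological replicates 1 and 2 and taken from separate biosamples that carry 1 donor identifier. Both came from mice of strain C57BL/6N,129 with the alleles labelled LCR deletion and HET globin mutation, so every group described here shares these alleles. No control was included and sex was recorded as not collected. How far the deletion reaches, what the globin mutation is and which alleles each embryo had are not stated in the labels. The intervals given for shares of peaks cover the counting of peaks only, and neighbouring peaks are not independent.

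DNase I cuts DNA most readily where nucleosomes have been displaced by bound proteins, so DNase-seq peaks mark promoters, enhancers and insulators. Sites far from genes are known to include enhancers that act over long distances and binding sites of CTCF, the zinc-finger protein that anchors chromatin loops and separates domains. At this age the liver is the main site of red cell formation, and the erythroid factor GATA1 binds many distant enhancers together with the E-box protein TAL1 and the bridging protein LMO2. A footprint is a short protected stretch inside a peak, where a bound protein shields the DNA from cleavage.

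The sequences of a few members show what these sites held. All come from RefSeq's GRCm38 genome (mm10 coordinates), plus strand, read 5′ to 3′ over the whole peak of replicate 1, and each is named by the nearest protein-coding gene, which need not be its target. The first pair had the highest mean rank among members with a CTCF consensus match, shown in capitals, inside a listed footprint of both libraries. The site nearest to Chd2, which encodes a chromatin remodeller, lay 76655 bases from its start. The site nearest to Zfp36l2, which encodes an RNA-binding protein that destabilises transcripts, lay 73747 bases away. Their values were 19.3 in replicate 1 and 10.2 in replicate 2 at the Chd2 site and 7.44 and 5.84 at the Zfp36l2 site.
Chd2 site, chr7:73618401-73618660: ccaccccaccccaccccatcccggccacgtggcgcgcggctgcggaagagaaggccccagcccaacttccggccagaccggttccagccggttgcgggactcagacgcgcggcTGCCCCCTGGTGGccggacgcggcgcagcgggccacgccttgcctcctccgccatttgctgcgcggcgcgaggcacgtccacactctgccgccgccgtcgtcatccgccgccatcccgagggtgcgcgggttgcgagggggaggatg
Zfp36l2 site, chr17:84114021-84114200: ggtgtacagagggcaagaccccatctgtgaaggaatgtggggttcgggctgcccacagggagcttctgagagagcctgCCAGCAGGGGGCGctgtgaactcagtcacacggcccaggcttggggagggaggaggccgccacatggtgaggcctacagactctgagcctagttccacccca

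The next set shows the erythroid type of sequence. Capitals mark the GATA word WGATAA, with W standing for A or T, at the Pgrmc2 site, and at the others the GATA-E-box motif, a GATAA with an E-box half-site CTG a short way before it, the arrangement known to be bound by GATA1 and TAL1 together. The Pgrmc2 site had values of 3.73 in replicate 1 and 2.04 in replicate 2. The Pik3r1 site (3.44 and 1.71) and the Npvf site (5.43 and 1.95) were chosen by the same rule, with the match in a footprint of both libraries at the Pik3r1 site and of replicate 1 at the Npvf site. The Klf3 site is shown because Klf3 encodes a Krüppel-like repressor present in erythroid cells. The Fli1 site is shown because Fli1 encodes an ETS factor of blood stem cells and megakaryocytes. At neither site did the match lie in a listed footprint of either library.
Pgrmc2 site, chr3:41169561-41169780: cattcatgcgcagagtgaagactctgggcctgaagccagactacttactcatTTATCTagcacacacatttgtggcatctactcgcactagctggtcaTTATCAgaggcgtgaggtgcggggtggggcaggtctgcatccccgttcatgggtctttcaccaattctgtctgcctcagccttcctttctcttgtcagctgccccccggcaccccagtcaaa
Pik3r1 site, chr13:101611781-101612060: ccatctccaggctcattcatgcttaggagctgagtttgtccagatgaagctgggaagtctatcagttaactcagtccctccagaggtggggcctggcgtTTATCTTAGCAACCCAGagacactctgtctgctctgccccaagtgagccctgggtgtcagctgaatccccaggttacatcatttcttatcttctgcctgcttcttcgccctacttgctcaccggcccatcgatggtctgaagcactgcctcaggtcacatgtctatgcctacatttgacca
Npvf site, chr6:50890841-50891100: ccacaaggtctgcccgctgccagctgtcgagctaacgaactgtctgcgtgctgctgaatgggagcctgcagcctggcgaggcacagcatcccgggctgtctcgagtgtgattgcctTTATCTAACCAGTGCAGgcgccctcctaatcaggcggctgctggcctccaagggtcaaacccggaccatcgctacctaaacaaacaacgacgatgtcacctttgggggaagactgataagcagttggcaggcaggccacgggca
Klf3 site, chr5:64587981-64588180: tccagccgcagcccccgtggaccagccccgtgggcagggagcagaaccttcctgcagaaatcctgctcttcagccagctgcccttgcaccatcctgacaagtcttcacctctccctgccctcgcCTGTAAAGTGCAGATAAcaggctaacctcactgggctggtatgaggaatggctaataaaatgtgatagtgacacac
Fli1 site, chr9:32607341-32607580: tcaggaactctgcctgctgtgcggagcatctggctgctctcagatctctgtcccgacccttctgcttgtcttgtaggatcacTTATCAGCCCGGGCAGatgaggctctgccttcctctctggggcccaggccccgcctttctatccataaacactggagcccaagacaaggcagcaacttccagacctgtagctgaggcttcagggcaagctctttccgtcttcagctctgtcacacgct

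At the site nearest to Lao1, capitals mark 2 overlapping NFE2 matches, GCTGAGTCA on the plus strand and GCTGACTCA on the minus strand, inside a footprint of both libraries. NFE2 is a basic leucine zipper factor of red cells and platelets.
Lao1 site, chr4:119019521-119019760: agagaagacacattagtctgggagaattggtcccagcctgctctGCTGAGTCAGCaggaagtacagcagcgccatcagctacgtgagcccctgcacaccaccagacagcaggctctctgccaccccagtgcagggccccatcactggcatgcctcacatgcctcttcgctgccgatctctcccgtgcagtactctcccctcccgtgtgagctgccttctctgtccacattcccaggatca

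The last pair shows sites at short genes that RNA polymerase III transcribes. Capitals mark the RefSeq tRNA-Thr gene at the site nearest to Mrtfb, and at the site nearest to Pdia4 the bases that lay in 32-base words of the RefSeq 4.5S RNA gene Rn4.5s.
Mrtfb site, chr16:13437141-13437420: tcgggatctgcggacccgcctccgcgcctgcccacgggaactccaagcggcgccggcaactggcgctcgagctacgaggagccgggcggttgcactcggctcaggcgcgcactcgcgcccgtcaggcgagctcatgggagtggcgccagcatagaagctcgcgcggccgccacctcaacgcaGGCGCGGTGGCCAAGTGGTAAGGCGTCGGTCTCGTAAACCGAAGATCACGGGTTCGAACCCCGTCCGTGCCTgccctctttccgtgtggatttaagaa
Pdia4 site, chr6:47748421-47748620: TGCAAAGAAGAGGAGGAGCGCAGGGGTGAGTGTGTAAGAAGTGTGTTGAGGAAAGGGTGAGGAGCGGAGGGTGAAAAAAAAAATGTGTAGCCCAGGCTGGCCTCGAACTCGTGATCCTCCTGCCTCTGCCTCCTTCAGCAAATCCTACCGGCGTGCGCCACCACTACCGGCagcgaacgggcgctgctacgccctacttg

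Replicate 1 had 47198 peaks in its longer list and replicate 2 had 36523, of which 4178 and 2517 were far intergenic before sharing was asked for. The height of a peak is the authors' depth-normalised signal, with no stated scale between libraries, so both values are shown side by side. Open starts were counted by gene list, as shared peaks within 1000 bases of a start. They were found at 17 of 18 erythroid regulators, 27 of 30 erythroid membrane, heme and iron genes and 7 of 22 hepatoblast genes. They were also found at 14 of 20 blood stem and progenitor, 5 of 12 megakaryocyte, 5 of 12 lymphoid and 4 of 17 myeloid genes. Of the remaining lists, 1 of 13 endothelial, 5 of 14 stellate, 9 of 36 developmental and 9 of 15 growth and signalling genes had one. The share of hepatoblast genes lay between those of the endothelial and lymphoid lists. The defining hepatocyte genes Alb, Ttr and Hnf4a and the erythroid heme gene Alas2 had none. The share over all protein-coding genes was not computed, so whether any list departs from it cannot be told. Fewer cells of a type and less open chromatin per cell cannot be told apart in bulk tissue.

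Far intergenic sites were low peaks. Their median value was 1.04 in replicate 1 and 0.804 in replicate 2, against 1.55 and 1.16 for gene-near intergenic peaks, 1.39 and 1.05 for peaks inside gene bodies and 2.94 and 2.23 for peaks at starts. Members ran from 0.234 to 36.0 in replicate 1 and from 0.18 to 64.4 in replicate 2. Beyond 200000 bases the medians were 0.702 and 0.582. The median width was 200 bases, the same as for the gene-near and gene-body classes, and the GC content of the central 150 bases had a median of 54.7% in each of these 3 classes. Far intergenic DNA as a whole had 39.8% GC, so the open sites were GC-rich compared with the DNA they lie in. Sequence masked as repeat made up 10.7% of the members' central windows on average and 43.3% of far intergenic DNA.

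Far intergenic peaks were also the least shared class. Of replicate 1 peaks, 36.4% of far intergenic ones overlapped a replicate 2 peak (34.9% to 37.8%), against 58.2% of gene-near, 50% of gene-body and 77.8% of start peaks. Height accompanied this difference. Within quartiles of height set over all replicate 1 peaks, the far intergenic share was 14.9%, 60.5%, 86.4% and 98.0% from lowest to highest, against 18.3%, 48.5%, 82.1% and 98.4% for gene-near peaks. In the second quartile the far intergenic interval (57.1% to 63.8%) lay above that of gene-near peaks (46.5% to 50.4%), and in the lowest it lay below (13.5% to 16.3%, against 16.5% to 20.1%). The lowest quartile held 2632 of the 4178 far intergenic peaks of replicate 1 and 1795 of the 7728 gene-near ones.

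**Figure D1:**
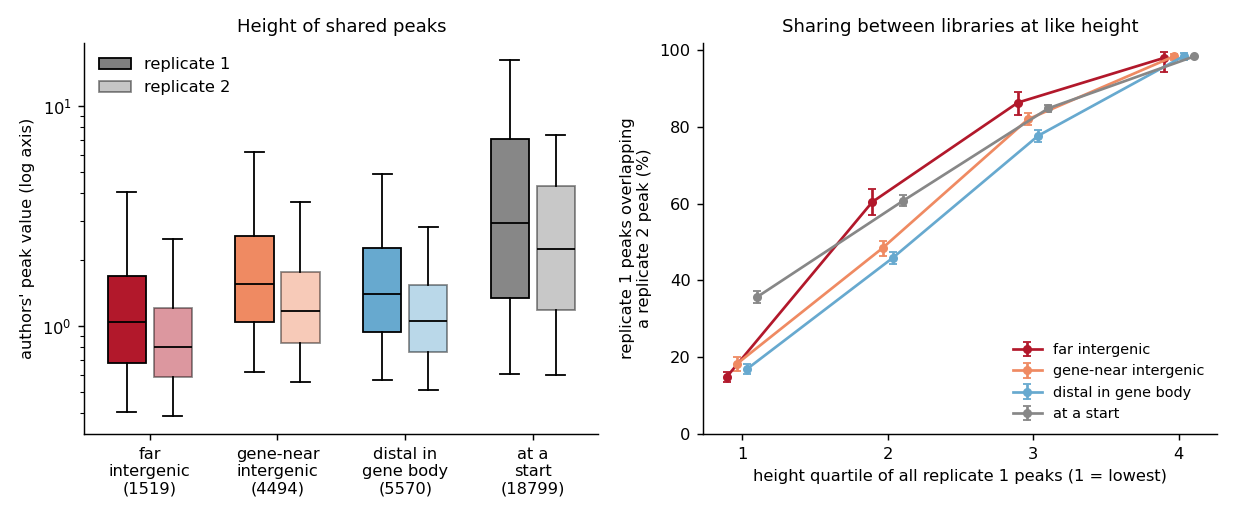
Left, the authors' peak value on a log axis for shared peaks of 4 classes in replicate 1 (solid) and replicate 2 (pale); boxes span the quartiles with the median as a line, whiskers span the 5th to the 95th percentile, and n is under each class. Right, the share of replicate 1 peaks that overlapped a replicate 2 peak in each quartile of height, with exact 95% binomial intervals; far intergenic peaks reached 98.0% in the highest quartile.

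Open sites were sparse in this part of the genome. Far intergenic DNA made up 1049 Mb, 39.6% of chromosomes 1 to 19, X and Y, and held 1.45 shared peaks per Mb, against 9.05 per Mb in gene-near intergenic DNA, 5.92 in gene bodies and 117.3 at starts. Beyond 200000 bases the density was 0.431 per Mb. The median gap from a member to the nearest other shared peak of any class was 38801 bases, against 6299 for gene-near and 8720 for gene-body peaks. A gap of more than 50000 bases isolated 680 members (44.8%), against 6.52% of gene-near peaks, and 990 members had no other member within 20000 bases. Autosomes held from 0.977 members per Mb of far intergenic DNA on chromosome 14 to 2.29 on chromosome 6. Chromosome X held 0.704 per Mb and chromosome Y none in 69.2 Mb.

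Distance from genes went with lower peaks. The 850 members at 50000 to 100000 bases had median values of 1.21 and 0.908 in replicates 1 and 2, the 414 at 100000 to 200000 bases had 0.918 and 0.735, the 223 at 200000 to 500000 bases had 0.727 and 0.610, and the 32 beyond that had 0.456 and 0.464. Sharing of replicate 1 peaks over the same bins was 49.1%, 37.3%, 24.6% and 7.44%. The share of members with a footprint in replicate 1 was 90.8%, 83.3%, 78.0% and 62.5%. CTCF matches did not follow this order: they stood at 22.0%, 23.7%, 19.7% and 25%, with overlapping intervals. GATA matches were at 18%, 23.2%, 22.9% and 12.5%, the last with an interval from 3.51% to 28.99% on 32 sites. Members whose central window was more than 20% made of 32-base words found elsewhere in the genome formed 7.41%, 6.76%, 11.2% and 37.5% of the bins.

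**Figure D2:**
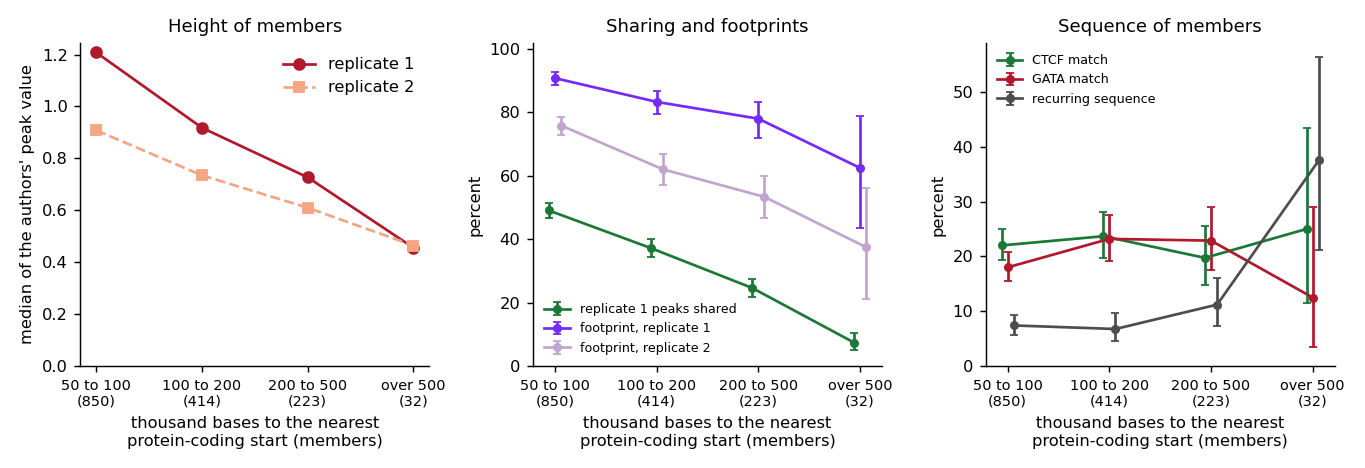
Far intergenic shared peaks by distance to the nearest protein-coding start, with the number of members under each bin. Left, median of the authors' peak value in each library; middle, share of replicate 1 peaks that were shared and share of members with a listed footprint; right, share of members with a CTCF match, a GATA match or over 20% recurring words, with exact 95% binomial intervals. Height, sharing and footprints declined with distance, while the CTCF share stayed between 19.7% and 25%.

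The sites on either side of both distances overlapped in height. Just inside 50000 bases, the members nearest to Kdm7a (50003 bases; 0.641 in replicate 1 and 0.596 in replicate 2), Srsf5 (50004 bases; 1.32 and 0.970) and Gpx5 (50011 bases; 1.73 and 1.75) were included. Just outside it lay the peaks nearest to Ddx3x (49990 bases; 3.27 and 1.84), Tmem92 (49978 bases; 0.715 and 0.887) and Tent5c (49904 bases; 1.01 and 1.03). At 200000 bases, the members nearest to Rab10 (200049 bases; 3.70 and 2.66), Maf (200076 bases; 0.579 and 0.430) and Dusp10 (201300 bases; 0.702 and 0.749) fell inside the farther set. Those nearest to Ascc3 (199914 bases; 0.283 and 0.360), Phf14 (198688 bases; 0.678 and 0.457) and Hs6st1 (198471 bases; 0.542 and 0.499) fell just short of it.

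The CTCF motif was far more frequent at the centre of these sites than in the DNA around them. Searching the central 150 bases on both strands, 337 of 1519 members held a CTCF match (22.2%, 20.1% to 24.4%), against 23.5% of gene-near, 19.9% of gene-body and 3.86% of start peaks. In windows of the same length shifted 1000 bases to either side of the members, the share was 0.198%. Among all far intergenic peaks of 1 library, shared or not, CTCF matches were at 12.4% in replicate 1 and 14.2% in replicate 2. Per 50 bases, matches reached 11.1 per 100 members next to the centre and averaged 0.0658 at the edges. Listed footprints covered 218 of the 337 matches in replicate 1 (64.7%) and 143 in replicate 2 (42.4%), by at least 50% of the bases. In gene-near peaks these shares were 85.8% and 65.1%, with intervals that did not overlap those of the members. Members with a CTCF match were also lower, with median values of 0.998 and 0.832, against 1.55 and 1.21 in gene-near peaks with one. The 2 classes were not compared at like height.

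Footprints as a whole were less often listed at members than at gene-near and gene-body peaks. At least 1 footprint lay in 86.3% of members in replicate 1 and 68.0% in replicate 2, against 92.6% and 80.7% of gene-near, 89.5% and 76.6% of gene-body and 85.7% and 80.9% of start peaks. Member height goes with this measure: in the lowest quartile of members by mean rank the shares were 60.8% and 28.7%, and in the highest quartile 99.2% and 97.4%. The shorter peak lists of both libraries held 675 members (44.4%, 41.9% to 47.0%), against 54.5% of gene-near and 47.9% of gene-body peaks. Across members, footprints covered the central bases in up to 30.9% of sites in replicate 1 and 17.7% in replicate 2.

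**Figure D3:**
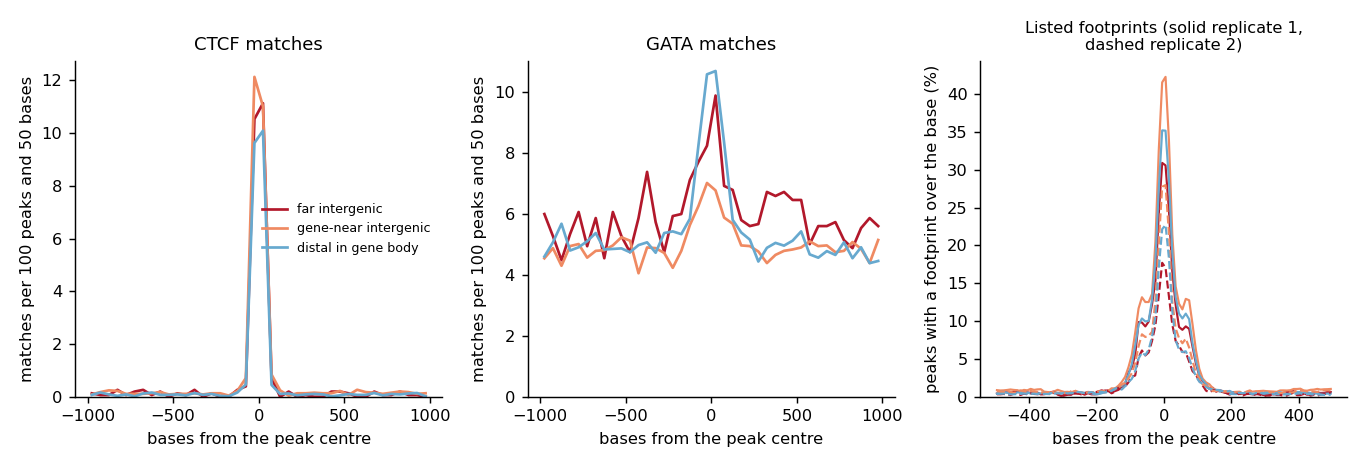
CTCF matches (left) and GATA matches (middle) per 100 peaks and 50 bases, and the share of peaks with a listed footprint over each base in bins of 10 bases (right; solid replicate 1, dashed replicate 2), against distance from the peak centre for far intergenic, gene-near intergenic and gene-body shared peaks. CTCF matches rose to 11.1 per 100 far intergenic peaks at the centre, while GATA matches stood on a background of 5.68 per 100 far intergenic peaks.

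Erythroid motifs stood above their flanks by smaller factors. These flanks were not matched for base composition, and its part in any difference was not tested. A GATA word lay in 304 members (20.01%, 18.03% to 22.1%), against 16.5% of gene-near, 24.6% of gene-body and 5.09% of start peaks, and in 14.5% of the members' flanking windows. Among all far intergenic peaks of 1 library, shared or not, the GATA share was 16.5% in replicate 1 against 16.1% in its flanks, and 13.8% in replicate 2 against 15.8% in its flanks, so the difference from flanks rests on the shared peaks. The longer GATA-E-box motif, which shares its GATAA with the GATA word, lay in 88 members (5.79%, 4.67% to 7.09%) and in 1.22% of flanks, a ratio of 4.76. In gene-near peaks it lay in 4.23% (3.66% to 4.86%) and in gene-body peaks in 8.17% (7.46% to 8.92%), so members fell between these classes, below the gene-body interval and overlapping the gene-near one. The NFE2 word lay in 30 members (1.98%), against 1.96% of gene-near peaks and 0.362% of the members' flanks, and 10 of the 30 matches lay in a footprint in each library. It contains the AP-1 word TGANTCA, which was at 5% in members and 4.74% in their flanks.

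Few GATA matches lay in footprints. Footprints covered 63 of the 304 in replicate 1 (20.7%) and 18 in replicate 2 (5.92%), far fewer than of CTCF matches. The other classes were alike, at 19.25% and 10.2% in gene-near and 17.35% and 9.62% in gene-body peaks, with overlapping intervals. For the GATA-E-box motif, footprints covered a match in 13 of 88 members in replicate 1 (14.8%) and in 4 in replicate 2 (4.55%). The GATA word lay in 14.5% of the members' flanks and the CTCF motif in 0.198%, so the footprint shares of the 2 motifs are not like for like. Taller members held the GATA-E-box motif more often: 2.90% (1.45% to 5.12%) in the lowest quartile by mean rank, 6.05% and 6.33% in the middle quartiles and 7.90% (5.39% to 11.1%) in the highest. CTCF showed no such order, at 21.1%, 23.4%, 24.3% and 20%.

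Among other motifs of blood and liver, KLF, SP and E-box words stood above their flanks. The ETS, RUNX, STAT and FOXA words lay closer to theirs. The flanks were not matched for base composition. Members' central windows had a median GC of 54.7%, against 39.8% for far intergenic DNA as a whole, and the KLF and SP words are GC-rich. What composition adds to these differences was not tested. The KLF word CCNCNCCC, bound by KLF1 and its relatives and contained in the SP word GGGGCGGGG, lay in 24.9% of members, against 25.9% of gene-near and 51.6% of start peaks, and in 14.2% of the members' flanks. The SP word itself lay in 2.30% of members and 0.560% of flanks, a ratio of 4.12. E-boxes (CAGCTG or CAGATG) lay in 26.1% of members and 16.5% of flanks. The ETS word GGAAGT was at 11% against 9.02% in flanks, the RUNX word TGTGGTT at 3.09% against 3.75%, the STAT word TTCNNNGAA at 4.08% against 5.07%, and the hepatic FOXA word TGTTTAC at 1.71% against 2.04%. None of the 26 FOXA matches lay in a footprint of either library (upper bound 13.2%). FOXA matches in footprints were rare in every class. In replicate 1 they were 3 of 71 in gene-near, 1 of 85 in gene-body and 6 of 193 in start peaks. Of the 25 motifs searched, none was found in 338 members (22.3%), whose median values were 1.00 and 0.804.

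Single sites show where these motifs met footprints. Besides the Lao1 site, an NFE2 word lay in footprints of both libraries at the site nearest to Cpeb4, which encodes a protein that acts on messenger RNA tails (3.33 in replicate 1 and 2.20 in replicate 2). A RUNX word did so at the site nearest to Lep, the leptin gene (1.43 and 1.58). An ETS word did so at the site nearest to Tbc1d1, which encodes a regulator of Rab proteins (4.66 and 3.11). Such sites were few. Footprints covered the RUNX word in 9 of 47 members in replicate 1 and in 2 in replicate 2. For the ETS word they did so in 20 of 167 and in 12. At the site nearest to Shisa3 (2.23 and 1.43), both the CTCF match and the ETS word lay in footprints of both libraries. The CTCF match overlaps the ETS word in the sequence, so their footprints cannot be told apart. The match of REST, the repressor of neuronal genes, was found in 2 members, and the one nearest to Igsf21 (0.789 and 0.582) had it in a footprint of replicate 1. Of the other hepatic factors, HNF4 had matches in 5 members and HNF1 in 1.

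**Figure D4:**
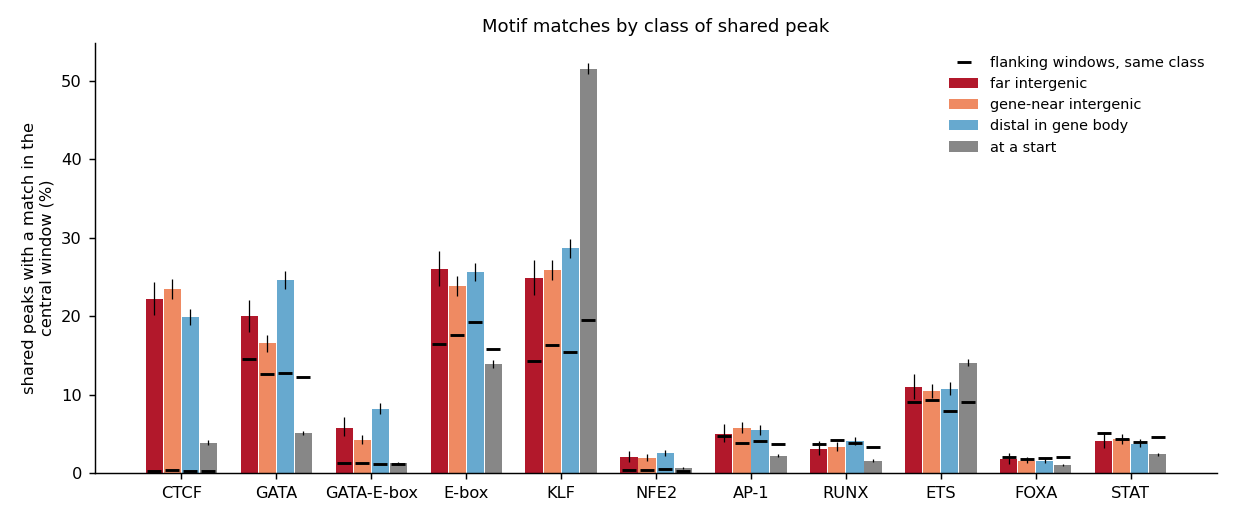
Share of shared peaks with a motif match in the central 150 bases, by class, with exact 95% binomial intervals; black ticks give the share in windows shifted 1000 bases to either side of the same class. Far intergenic peaks carried CTCF at 22.2% against 0.198% in their flanks, and GATA at 20.01% against 14.5%.

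Replicate 1 had the higher value at most members: replicate 2 was the higher library at 339 (22.3%, 20.3% to 24.5%), against 15.4% of gene-near, 17.1% of gene-body and 20.3% of start peaks (19.8% to 20.9% for the last, overlapping the members' interval). Members with different motifs differed in how their height compared between the libraries. The log2 ratio of replicate 2 to replicate 1 had a median of -0.28 for the 337 members with a CTCF match and -0.57 for the 281 with a GATA word and no CTCF match. It was -0.61 for the 88 with a GATA-E-box match and -0.32 for the 901 with neither CTCF nor GATA. The running median of this ratio, taken across shared peaks ranked by height, was then subtracted, which removes a factor between the libraries. The medians then were -0.04 for CTCF and -0.28 for all 304 GATA members. The same values were -0.02 and -0.26 in gene-near peaks and -0.02 and -0.27 in gene-body peaks, and the difference between classes was not tested. What in the tissue or the libraries moved with the motif was not tested.

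The members with the largest remaining difference between libraries fell into distinct sorts. The 5 highest in replicate 2 relative to replicate 1 were nearest to Mc2r (1.49 in replicate 1 and 5.24 in replicate 2), Rnf219 (5.41 and 13.2), Gm8797 (36.0 and 64.4), Myom2 (1.89 and 5.54) and Ddx18 (4.87 and 10.1). In all 5, recurring words made up more than 20% of the central window. The 5 lowest were nearest to Pls3 (4.94 and 0.568) and Rab39b (6.41 and 1.44) on chromosome X, Trappc8 (3.12 and 0.846), Veph1 (1.37 and 0.444) and Pik3r1 (2.46 and 0.721, a second site 119096 bases from the gene). Of these, only the Pls3 site was over 20% recurring.

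**Figure D5:**
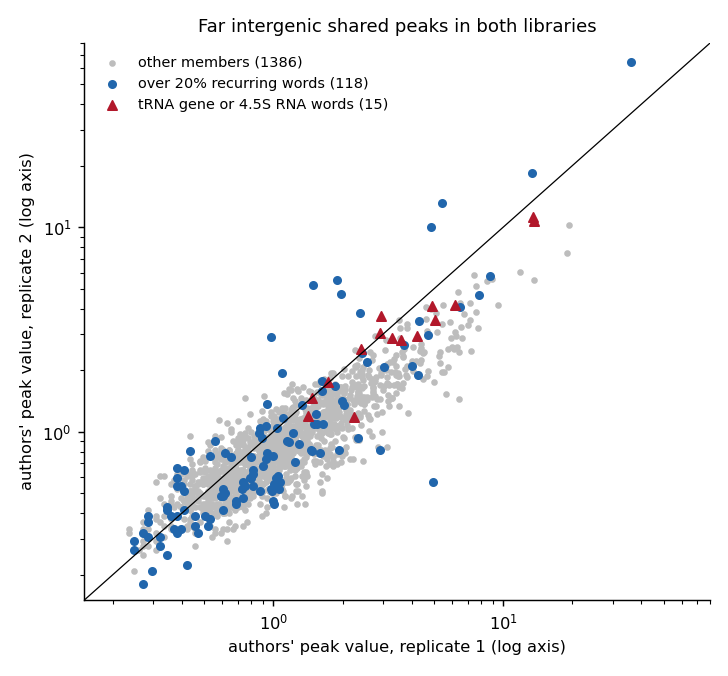
The authors' peak value of each of the 1519 members in replicate 1 and replicate 2, both on log axes, with the line of equality. Blue points are 118 members with over 20% recurring words, red triangles 15 members at a tRNA gene or with words of the 4.5S RNA gene, and grey points the other 1386; most members lie below the line and several of the tallest blue points lie above it.

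Sequence found in several places in the genome was more frequent at members than at gene-body and start peaks, while the interval overlapped that of gene-near peaks. More than 20% recurring words marked 128 members (8.43%, 7.08% to 9.94%), against 6.65% of gene-near peaks (5.94% to 7.42%), 3.32% of gene-body peaks and 2.95% of start peaks, and 14.5% of the members beyond 200000 bases. Of the 128, 65 were over 50% recurring and 13 wholly so, and 59 were mostly soft-masked, against 2.88% of the other members. Replicate 2 was the higher library in 44 of them (34.4%), against 21.2% of the other members. A read no longer than such a word has more than 1 place in the genome, and the labels and headers do not say how the authors treated such reads.

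The 10 tallest members by mean rank mixed these sorts. The tallest, on chromosome 3 and 109555 bases from Gm8797, had values of 36.0 in replicate 1 and 64.4 in replicate 2, and all of its words recurred, with a median of 8 copies. The Chd2 site followed, with 19.3 and 10.2, a CpG-rich sequence of 20 CpGs in its central window and no recurring word. The sites nearest to Wnt7b (18.95 and 7.46), Cstad (11.8 and 6.02) and Nkain1 (13.6 and 5.50) were likewise CpG-rich and unique. The Wnt7b site lay within 1000 bases of a RefSeq transcript start. Those nearest to Cdh20 (13.4 and 18.3), Pdia4 (13.4 and 11.3), Rnf219 (5.41 and 13.2) and Sfi1 (8.75 and 5.77) were over 20% recurring, and the Mrtfb site (13.7 and 10.7) is the tRNA-Thr gene. Among all members, 128 had at least 10 CpGs in the central window; their median values were 1.5 and 1.28.

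The farthest members were mostly faint. The Cdh20 site on chromosome 1 was both the farthest, at 2140209 bases from a protein-coding start, and one of the tallest. The next were nearest to Slc10a2 (1467063 bases; 0.283 and 0.416), Tenm3 (1448325 bases; 0.308 and 0.568) and Pcdh10 (1353888 bases; 0.283 and 0.305), and these 4 were the members beyond 1 Mb. The Tenm3 site held a CTCF match. Among the rest of the 10 farthest, those nearest to Api5, Sel1l, Ddx18, Pik3c3 and Dad1 lay at 711994 to 920385 bases, and of these only the Ddx18 site (4.87 and 10.1) was above 0.752 in replicate 1. The Dad1 site lay nearest to a start of Trav13-1, a variable segment of the T cell receptor alpha locus, which the protein-coding rule does not count.

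Some members were small RNA genes, which were looked up after their values were seen. RefSeq lists 403 nuclear tRNA genes on the chromosomes used, and 11 members lay within 300 bases of one, all overlapping it (0.724%), against 3.96% of gene-near, 0.108% of gene-body and 0.420% of start peaks. Their median values were 2.93 and 2.87, and 10 of the 11 were in the highest quartile of members. The Mrtfb site was the tallest of them. Sites on chromosome 13 held tRNA-Ala genes near Trim27 (5.05 and 3.54) and Gpx5 (3.61 and 2.80 at one site, 1.73 and 1.75 at another) and tRNA-Val and tRNA-Ile genes near Vmn1r223 (2.91 and 3.05, 1.48 and 1.46, and 3.28 and 2.87). A tRNA-Glu gene lay in the site near Atp10a, 256766 bases from its start (4.24 and 2.94). None of the 11 had a CTCF match, and all had a footprint in both libraries.

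The stretch between Ezh2, which encodes the histone H3K27 methyltransferase, and Pdia4, which encodes a protein disulfide isomerase, held 7 members in 200799 bases. In 4 of them, words of the RefSeq 4.5S RNA gene Rn4.5s made up more than 20% of the central window: 26.9% at the site 55400 bases from Ezh2 (4.92 and 4.10), and 58.8% (6.16 and 4.17), 31.1% (2.42 and 2.54) and 73.9% (13.4 and 11.3) at the sites 73430, 69270 and 64810 bases from Pdia4. No other shared peak of any class passed 20%. The 4.5S RNA is a short rodent RNA made by RNA polymerase III, and its genes are known to lie in tandem repeats. All 4 sites were in the highest quartile of members.

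Another annotation places transcripts at some members. RefSeq transcript starts lay within 1000 bases of 143 members (9.41%, 7.99% to 11%), against 12.2% of gene-near and 6.77% of gene-body peaks. Of these starts, long non-coding RNAs accounted for 111 members and messenger RNAs for 15. Median values were 1.33 and 0.957 at these members, against 1.02 and 0.790 at the 1376 others. At least 10 CpGs were found in 18.9% of the 143 and 7.34% of the rest, a GATA word in 27.3% and 19.3%, and a CTCF match in 12.6% and 23.2%. GENCODE non-coding gene bodies overlapped 243 members (16%), 185 of them lincRNA genes, against 10.4% of gene-near, 3.41% of gene-body and 16.1% of start peaks. Gene bodies of RefSeq overlapped 357 members with long non-coding RNA genes and 42 with protein-coding genes, given for members only. Those 42 were therefore intergenic by GENCODE but not by RefSeq.

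The members were spread over 908 stretches between protein-coding genes, of which 575 held 1 each; the 10 fullest held 76 members (5%). The fullest was the 778230 bases between Npvf, a neuropeptide gene, and Nfe2l3, which encodes a relative of the erythroid factor NFE2, with 10 members. Its tallest sites lay 161530 bases (7.75 and 3.22) and 253890 bases (7.05 and 3.33) from the Nfe2l3 start and 236402 bases from that of Npvf (5.43 and 1.95), and every one of the 10 had a footprint in replicate 1. The 708588 bases between H2al1j and Bcor, the gene of a transcriptional corepressor, held 9 members, of which 4 lay 73053 to 81293 bases from Bcor with 1.26 to 3.68 in replicate 1 and 1.34 to 2.33 in replicate 2.

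The next stretches of the 10 are given by the genes that bound them. The 183103 bases between Syf2 and Runx3, which encodes a Runt factor, held 8 members, of which the tallest (6.51 and 4.06, and 4.61 and 4.06) lay side by side over 1 replicate 2 peak. Between Caprin1 and Lmo2, 6 members lay in 160336 bases, and 4 of them within 60826 to 63866 bases of the Lmo2 start. The tallest of these 4 had 5.53 in replicate 1 and 1.97 in replicate 2, and 3 of the 4 held a GATA word. LMO2 joins GATA1 and TAL1 in 1 complex. Between Lao1 and Slc2a1, the gene of the glucose transporter GLUT1, 7 members had values of 1.39 to 2.72 and 0.998 to 2.38, among them the NFE2 site shown above.

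The stretch with the lowest density among the 10 was the 1785593 bases between Myc and Gsdmc, with 7 members in separate groups. The first 3 lay in the non-coding gene Pvt1, 171439 bases (3.43 and 1.89), 203659 bases (1.70 and 1.01) and 233779 bases (3.13 and 1.73) from the nearest protein-coding start of Myc, the growth regulator. The other 4 lay 1657846 to 1746092 bases beyond the end of Myc, with 0.986 to 2.27 in replicate 1 and 0.665 to 1.69 in replicate 2. No CTCF match lay in any of the 7. Between Fam49a and Mycn, a relative of Myc, 7 members had 0.616 to 2.97 and 0.513 to 2.95. The stretches between Ubl3 and Katnal1 (8 members, 3 with a CTCF match) and between Lrrc74a and Irf2bpl (7 members in 116903 bases) completed the 10.

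The genes nearest to members came from all lists but 1. Of all 21911 protein-coding genes, 1010 (4.61%) were the nearest gene to at least 1 member. Among erythroid regulators 5 of 18 were, Lmo2 with 4 members, Klf3 with 3, Sox6 with 2 and Bcl11a and Bach1 with 1 each. Of the erythroid membrane, heme and iron genes, 1 of 30 was. Of blood stem and progenitor genes 7 of 20 were: Myc with 3 members, Kit, Runx1, Cd34 and Hmga2 with 2 each, and Meis1 and Fli1 with 1. No megakaryocyte gene of 12 was. The width of intergenic DNA around each gene was not taken into account, so these shares are not set against each other.

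The sites named for each list were the tallest of that list, so their height is a description only. The Cd34 site, 58979 bases from that stem cell marker's start, had 3.55 and 3.20 and a CTCF match in a footprint of both libraries. The Fli1 site had 3.47 and 1.87 and the Klf3 site 2.35 and 1.54. The site nearest to Cebpb, which encodes a myeloid and hepatic leucine zipper factor, had 5.13 and 3.83 at 76286 bases, and a second Cebpb site had 0.998 and 1.05. The site nearest to Maf, which encodes a leucine zipper factor of macrophages, had 0.579 and 0.430. The lymphoid list had single sites near Ebf1 (1.34 and 1.07), Foxo1 (0.826 and 0.749) and Gata3 (0.604 and 0.333). Those near Ebf1 and Foxo1 held a CTCF match.

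Lists of non-blood cells also had nearest members. Of 22 hepatoblast genes 4 did, and the sites named had 1.02 and 0.998 near Dlk1, 0.764 and 0.527 near Prox1 and 0.628 and 0.582 near Tbx3. Of 13 endothelial genes 3 did, with CTCF matches in footprints of both libraries at the sites of Kdr (1.13 and 1.21) and Cdh5 (1.22 and 1.07). Of 14 stellate and mesenchymal genes 3 did, near Lhx2 (1.75 and 1.33), Col1a1 (1.10 and 0.693) and Reln (0.973 and 0.679). Developmental regulators of other tissues had 8 of 36, with sites near Irx3 (2.28 and 1.66), Sox9 (1.39 and 1.01, 382957 bases away) and Sall1 (1.13 and 0.970, 527739 bases away). Growth and signalling genes had 6 of 15, with sites near Bmp2 (1.47 and 1.18), Inhba (1.11 and 0.804) and Id2 (1.38 and 0.541).

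Few members were known enhancers in RefSeq. RefSeq-listed enhancers overlapped 15 members (0.988%, against 1.02% of gene-near, 0.970% of gene-body and 0.149% of start peaks), all of them VISTA elements, which were tested with a reporter in transgenic mouse embryos. The listed activity was in heart for the elements at the Ier5 site (2.49 and 1.37) and the Map2k4 site (2.40 and 1.08). It was in eye and heart for the one at the Lao1 sites. For the one that 3 sites near Phc1 shared, the tallest with 4.07 and 2.59, it was in limb and an unspecified other tissue. Forebrain was listed for the element at the Irf2bp2 site (2.37 and 1.66). Blood vessels and parts of the brain were listed for the one at the Mn1 site (2.39 and 1.18). Several of the 15 members shared an element, and liver or blood cells were named for none of these elements. The listed activity was not set beside that of elements at other classes of peak.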

How the data were processed

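DNase-seq was run on liver from embryos at 13.5 days, in 2 libraries of 1 group. Per the labels and file headers, the authors aligned reads to mm10 and derived 4 tables for each library, without pooling: peaks in a longer and a shorter version, a list of footprints, and the false discovery rate of the cleavage along the genome. The deposited height of a peak is the authors' depth-normalised signal, made of steps of 0.0123 in replicate 1 and 0.0139 in replicate 2. The caller, its threshold, the read depth and the meaning of a step were not given in the sources used here, and the counting error of single values is therefore unknown. The deposited score of a footprint is the same for all, and footprints were used by position alone. The FDR (q-value type) deposited by the authors lists stretches under 0.05 and served only to look up peaks found in 1 library.

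Peaks were classed by GENCODE vM21 with Python 3.11.15, pandas 2.3.3, NumPy 2.4.6, SciPy 1.17.1 and numba 0.67.0, and the scripts were tested on simulated data. Distance ran to the start of the nearest transcript typed protein-coding. In the central 150 bases 25 motifs were searched on both strands, in RefSeq GRCm38 sequence. A match was inside a footprint when at least 50% of its bases were, and 32-base words with more than 1 copy on chromosomes 1 to 19, X and Y counted as recurring. Intervals are exact Clopper-Pearson, and with 1 group no condition was tested. The rule named the 10 tallest and 10 farthest members, the 10 fullest stretches between genes, up to 3 sites per gene list, the 5 highest and 5 lowest ratios, 2 sites per motif and the 3 sites on each side of both distances. Mean rank is over both libraries. Some of the sites so named are not reported here. The members and lists were chosen with earlier results of these data known, and the tRNA, 4.5S RNA, RefSeq start and enhancer look-ups were added after values had been seen. The alternatives were the shorter lists, an overlap of 50%, replicate 2 peaks as the base, the upper 50% of peaks, a distance of 100000 bases, whole-peak motif search, omission of recurring sequence, each library alone, and other starts.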

Additional observations from a re-analysis of the deposited data

How the results depend on the processing

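Over 10 settings, 38 of 88 recomputed values were close to those reported and 50 moved; close means within 1.5 times for the number of sites and within the counting interval or spread for the rest. The number of sites was 677 with the shorter lists, 326 in the upper 50% of peaks and 669 beyond 100000 bases, and ranged from 2517 to 4178 without one replicate or the other. Their share of peaks was 3.27%, 1.87% and 2.20% under the same settings, 4.73% at an overlap of 50%, and 6.89% to 8.85% without a replicate. With starts of all transcripts of protein-coding genes, an alternative chosen after seeing the data, it was 4.44%, with a median GC of 54%. The share beyond 200000 bases was 11.7% with the shorter lists, 8.59% in the upper 50%, 38.1% beyond 100000 bases and 27.1% to 31.95% without a replicate. Median values with the shorter lists, in the upper 50% and beyond 100000 bases were 1.64, 2.55 and 0.813 in replicate 1. In replicate 2 they were 1.22 with the shorter lists and 1.73 in the upper 50%. A library on its own had 0.542 without replicate 2 and 0.582 without replicate 1.

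Footprints in replicate 1 marked 96.6%, 99.7% and 80.6% under these settings, 81.8% with replicate 2 peaks as the base and 58.6% without replicate 2. Footprints in replicate 2 marked 89.5%, 98.8% and 58.0%, 73.3% at an overlap of 50%, and 49.5% without replicate 1. CTCF matches were at 24.96% with the shorter lists, 24.5% at an overlap of 50% and 12.4% to 14.2% without a replicate. GATA matches were at 17.9% at an overlap of 50%, 17.3% with replicate 2 peaks as the base, 22.4% in the upper 50%, 22.6% beyond 100000 bases, 23.8% over whole peaks and 13.8% to 16.5% without a replicate. Without replicate 1, GATA matches fell below their flanks (13.8% against 15.8%). Median GC was 55.3% with the shorter lists, 56% in the upper 50%, 54% beyond 100000 bases, and 54% to 54.67% without a replicate. Omitting recurring sequence left 1391 sites and moved none of the 10 results by this measure. The cause of these shifts was not tested. No paired analysis was possible because the 2 libraries form 1 group. The depth is unknown, so what it limits cannot be given.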

Other observations

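Far intergenic peaks found in a single library were faint and more often recurring than the shared ones. Replicate 1 had 2659 of them with a median value of 0.394, and replicate 2 had 1000 with a median value of 0.347. More than 20% recurring words marked 23.4% of those in replicate 1 and 31% of those in replicate 2, against 8.43% of shared members. A CTCF match lay in 6.81% and 3.4% of them, against 22.2% of shared members, and a GATA word in 14.6% and 8.6%, against 20.01%. The other library had a listed stretch with a false discovery rate under 0.05 at 5.49% of the replicate 1 peaks and 7% of the replicate 2 peaks. These shares were 10.1% and 17.1% for gene-near peaks found in a single library.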
